A study of Rattus norvegicus with 12 samples.

Results

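Rat miRNAs that reach Dicer without the usual nuclear cut were followed in the adult hippocampus after acute ethanol. They were every listed row with the stem miR-320, miR-484, miR-877, miR-1224 or miR-1839, whichever arm of the hairpin it came from. This gave 7 of the 753 mature miRNAs listed (rno-miR-320-3p, rno-miR-320-5p, rno-miR-484, rno-miR-877, rno-miR-1224, rno-miR-1839-5p and rno-miR-1839-3p, written without the prefix from here on), from 5 hairpins. Of these, 6 were retained among the 420 miRNAs with enough reads to test, and miR-320-5p, which had 0 reads in all 12 libraries, was not.

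Small RNA was sequenced from hippocampal tissue of 12 Sprague Dawley rats, adult males aged P70 to P80, 1 library per rat, with 1 µg of total RNA behind each. Ethanol was injected at 4 g/kg in 8 rats (numbers 3, 4, 7, 8, 15, 16, 23 and 24) and vehicle in 4 rats (9, 10, 19 and 20), and all were killed 3 h later. The study describes 8 rats per group, and the other vehicle rats are not analysed here. The labels call the tissue the right hippocampus and the study's title calls it dorsal hippocampus, and in such bulk tissue fewer cells of a type and less RNA per cell cannot be told apart.

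Most miRNAs are cut from a long primary transcript by Drosha with its partner DGCR8, exported, and cut again by Dicer into a duplex, of which usually 1 strand is kept in Argonaute. The miRNAs described here enter this route by other doors. MiR-877 and miR-1224 are mirtrons, short introns whose ends are made by the spliceosome. MiR-320 comes from a short capped transcript that starts and ends as the hairpin itself, and miR-484 has likewise been described as made without DGCR8. MiR-1839 is cut from a box H/ACA small Cajal body RNA, a class of guide RNA that directs pseudouridine changes in other RNAs. A mature miRNA finds its targets mainly through its seed, bases 2 to 8 from the 5′ end.

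Mature sequences were found for 5 of the 7 listed rows in RefSeq (rat assembly GRCr8). They are shown with the seed in capitals, because each member carries its own, and let-7a-5p is added since it returns in the results for miR-1839-5p.
miR-484: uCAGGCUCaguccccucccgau
miR-877: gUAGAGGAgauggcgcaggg
miR-1224: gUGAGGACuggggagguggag
miR-1839-5p: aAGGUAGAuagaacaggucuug
miR-1839-3p: aGACCUACuuaucuaccaacag
let-7a-5p: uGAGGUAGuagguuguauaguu
No 2 of the 5 members shared a seed. Among all listed miRNAs with a mature sequence, the seed of miR-484 was shared only by miR-344a-5p, which had 0 reads in all 12 libraries, and the other 4 seeds were shared by none. MiR-1839-5p holds AGGUAG at bases 2 to 7 and let-7a-5p holds the same letters at bases 3 to 8, 1 base further in. Of 389 retained miRNAs with a mature sequence, 13 (3.34%) held AGGUAG anywhere, and 9 of these belong to the let-7 family with miR-98-5p. GC content was 63.6% in miR-484, 65% in miR-877 and 66.7% in miR-1224, against 40.9% in each arm of miR-1839 and a median of 47.8% over retained miRNAs.

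The hairpins of the mirtrons show both ends of an intron, while that of miR-1839 ends with AG but begins with GA. The first 2 and last 2 bases of the mirtron hairpins are in capitals below, and in Scarna15, the name RefSeq gives the gene of miR-1839, both mature arms are in capitals.
Mir877, chr20:2816284-2816368, plus strand: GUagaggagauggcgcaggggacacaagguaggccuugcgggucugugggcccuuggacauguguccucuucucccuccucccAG
Mir1224, chr11:93811291-93811375, minus strand: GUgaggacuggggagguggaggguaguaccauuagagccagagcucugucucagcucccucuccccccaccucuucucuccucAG
Scarna15, chr1:144893856-144893919, plus strand: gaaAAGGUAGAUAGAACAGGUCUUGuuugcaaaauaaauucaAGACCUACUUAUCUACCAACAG
Both mirtron hairpins were 85 bases long, began with GU, the first letters of most introns, and ended with AG, the last. Only 4 of 419 hairpins in the table (0.955%) did both, and the other two were Mir3595 and Mir678. In each, the mature miRNA began at base 1 of the hairpin, at the place of a 5′ splice site. The last 20 bases were 90% C or U in Mir877 and 85% in Mir1224, against a median of 50% over all hairpins, as in the pyrimidine tract before a 3′ splice site. RefSeq places Mir877 within Abcf1 and Mir1224 within Vwa5b2, while the nearest genes to Mir484 were Marf1 and Nde1, and those to Mir320a were Polr3d and a tRNA gene. The Scarna15 hairpin was 64 bases long with the 5p arm at bases 4 to 25 and the 3p arm at bases 43 to 64.

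Library totals ran from 1960702 to 4917929 counts, a 2.51-fold range, and 3 counts, taken as the floor of detection, came to 0.631 to 1.57 CPM (counts scaled to a common library size by TMM, which sets most miRNAs level between libraries). Neuronal miRNAs were high in all 12 libraries, with miR-9a-5p at rank 12 of 753 by median CPM, miR-128-3p at 27 and miR-124-3p at 45. The tissue around them varied: the summed muscle miRNAs (4 of 4 listed, miR-206-3p near 0) ran from 126 to 1764 CPM in vehicle and 112 to 1711 CPM in ethanol rats, and the summed choroid plexus miRNAs (4 of 4) from 29002 to 50295 CPM and 16526 to 70924 CPM. None of 6 marker lists differed between groups by an exact permutation test over all 495 ways to choose 4 of 12 libraries, with the smallest p, 0.0828, for muscle (exact, log2 difference -1.91). MiR-486, a red blood cell marker, is not among the listed rows.

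Together the members made up a small fraction of the reads, between 0.0471% and 0.0823% of each library's counts. Their order by median CPM was miR-1839-5p (257), miR-320-3p (145), miR-1224 (68.1), miR-1839-3p (22.2), miR-484 (19.9) and miR-877 (4.42). MiR-1839-5p stood at rank 132 of 753 and miR-877 at rank 383. The neighbours miR-1839-3p and miR-484 had overlapping ranges, from 18.1 to 26.7 CPM and from 15.2 to 59.8 CPM. The deposited counts of all members were whole numbers in all 12 libraries.

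**Figure D1:**
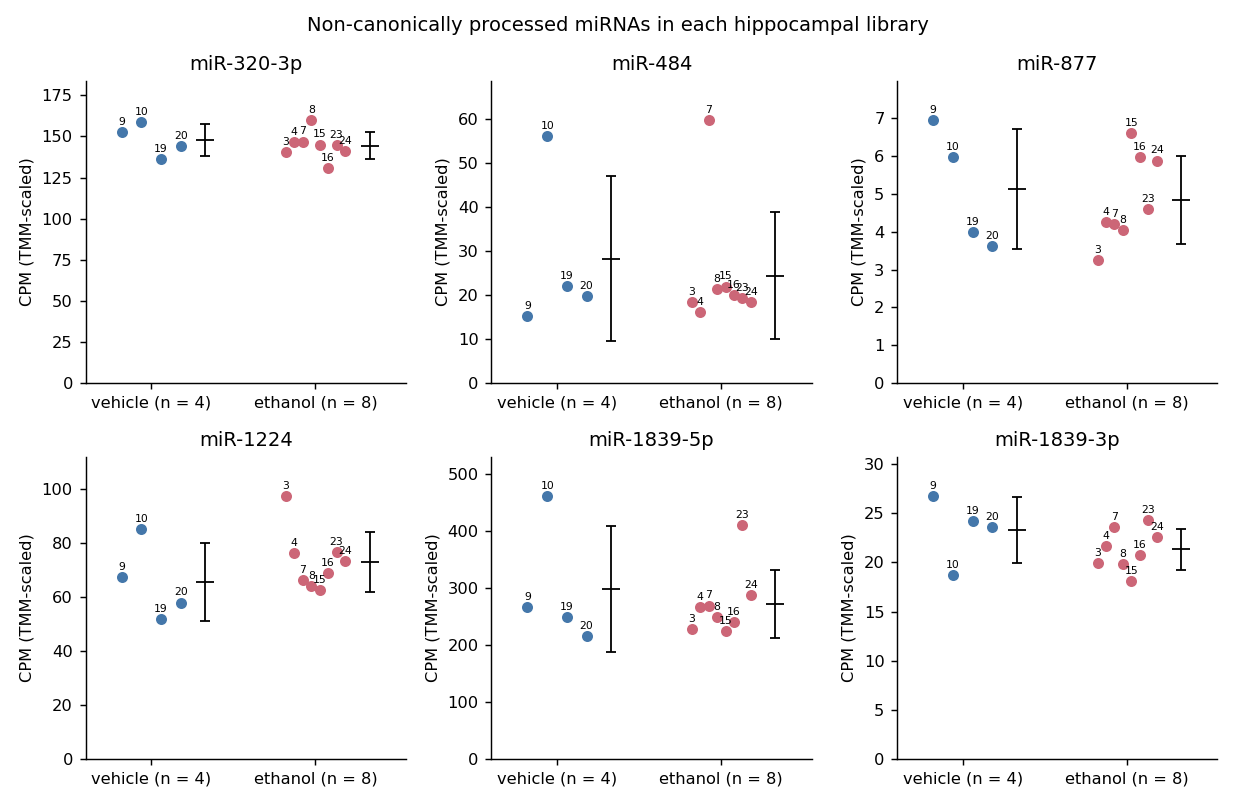
TMM-scaled CPM (vertical axis, from 0) of the 6 retained members in each of 12 libraries, with 1 point per rat labelled by its number. Black marks give the group mean and the bars the SD (4 vehicle rats, 8 ethanol rats). Vehicle and ethanol points overlap in all 6 panels, and rats 10 and 7 stand above the others for miR-484 and rats 10 and 23 for miR-1839-5p.

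MiR-320-3p, the 3p arm of the capped hairpin, was among the steadiest miRNAs in the tissue. In vehicle rats 9, 10, 19 and 20 it stood at 153, 159, 136 and 144 CPM, and in ethanol rats it ran from 131 to 160 CPM with a median of 145. The highest library was 1.22 times the lowest, and the groups overlapped over nearly their whole range. Its coefficient of variation over 12 libraries was 5.82%, close to the 4.93% that counting error alone would give for 280 to 678 reads. The SD of its log2 CPM, 0.08, was the 8th smallest of 420, against a median of 0.24, and 0 of the 74 other retained miRNAs within 2-fold of its level had a smaller SD. Group means were 148 ± 9.79 (SD, n = 4) in vehicle and 144 ± 8.16 CPM (SD, n = 8) in ethanol rats. The log2 difference, ethanol minus vehicle, was -0.03 (SE 0.08), with a 95% interval from -0.20 to 0.13, which is 0.869 to 1.10 times the vehicle level (adjusted p = 0.974, edgeR's quasi-likelihood test, Benjamini-Hochberg over 420 miRNAs).

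The opposite arm, miR-320-5p, had 0 reads against 5305 reads of the 3p arm over all libraries. A count of 0 allows up to 3 reads, or 0.0566% of the 3p reads, and this covers counting error only. For a capped precursor of this kind the 5p strand is known to be poorly loaded, and it was at or under the detection limit here in both groups, so no comparison was made for it. No mature sequence was found for either arm of miR-320.

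MiR-484 behaved otherwise: 2 libraries stood far above the rest. Vehicle rats 9, 10, 19 and 20 had 15.2, 56.2, 22.1 and 19.8 CPM. Ethanol rats 3, 4, 7, 8, 15, 16, 23 and 24 had 18.5, 16.2, 59.8, 21.4, 22.0, 20.0, 19.4 and 18.5 CPM. Vehicle rat 10 and ethanol rat 7 were thus high, and the other 10 libraries lay between 15.2 and 22.1 CPM. The coefficient of variation was 59.1%, against 11.7% for counting error, and 96 of the 102 other retained miRNAs within 2-fold of its level had a smaller SD of log2 CPM. The totals of these libraries were 2243412 and 1960702 counts, the third smallest and the smallest, while ethanol rat 3, with 2071128 counts, had 18.5 CPM. Over 12 libraries the log2 CPM of miR-484 and the log2 library total gave r = -0.43 (permutation p = 0.166, adjusted p = 0.676 over 42 relations of members with depth and markers) and rho = -0.10 (permutation p = 0.767, adjusted p = 0.879). Without the 2 libraries farthest from the median total, r was -0.55.

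With all rats, miR-484 averaged 28.3 ± 18.8 CPM (SD, n = 4) in vehicle and 24.5 ± 14.4 CPM (SD, n = 8) in ethanol rats, a log2 difference of -0.20 (SE 0.39, 95% interval -1.05 to 0.65, edgeR adjusted p = 0.971, Benjamini-Hochberg). Its direction rested on vehicle rat 10. Without that rat the log2 difference was 0.31, and without both high libraries, which were chosen after seeing the data, it was 0.04. With the library total as a covariate and all 12 rats it was -0.57 (edgeR adjusted p = 0.995, Benjamini-Hochberg).

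The mirtrons lay at different depths. MiR-877, with 7 to 24 reads per library, was the scarcest member and reached 10 reads in 10 of 12 libraries. Vehicle rats 9, 10, 19 and 20 had 6.93, 5.96, 4.00 and 3.62 CPM, and ethanol rats ran from 3.24 to 6.59 CPM with a median of 4.42. These ranges overlapped over most of their length, and the coefficient of variation of 25.3% was no larger than the 26.8% given by counting error. The group means were 5.13 ± 1.58 CPM (SD, n = 4) and 4.85 ± 1.16 CPM (SD, n = 8), with a log2 difference of 0.00 (SE 0.24, 95% interval -0.51 to 0.51, edgeR adjusted p = 1.00, Benjamini-Hochberg). The interval covers 0.701 to 1.43 times the vehicle level.

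MiR-1224, from within Vwa5b2, was read 126 to 272 times per library. Vehicle rats 9, 10, 19 and 20 had 67.4, 85.1, 51.7 and 57.9 CPM, and ethanol rats ran from 62.6 to 97.3 CPM with a median of 71.0. Ethanol rat 3 was highest and vehicle rats 19 and 20 were lowest, and vehicle rats 9 and 10 lay within the ethanol range. Spread exceeded counting error (17.4% against 7.08%). Means were 65.5 ± 14.6 CPM (SD, n = 4) and 73.0 ± 11.1 CPM (SD, n = 8), and the log2 difference was 0.16 (SE 0.15, 95% interval -0.15 to 0.48, edgeR adjusted p = 0.971, Benjamini-Hochberg).

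MiR-1224 tended to be lower in deeper libraries, but this did not pass after adjustment. Its log2 CPM and the log2 library total gave r = -0.74 over 12 libraries (permutation p = 0.00620, adjusted p = 0.260 over 42 relations) and rho = -0.62 (permutation p = 0.0352, adjusted p = 0.659). Vehicle rats 19 and 20, the lowest in miR-1224, were the 2 deepest libraries. Without the 2 libraries whose totals were farthest from the median, r was -0.48. With the library total as a covariate, the log2 difference of miR-1224 between groups went from 0.16 to 0.01 (edgeR adjusted p = 0.995, Benjamini-Hochberg). Totals ran from 2243412 to 4917929 counts in vehicle and from 1960702 to 3598773 counts in ethanol rats. A fit with this covariate therefore cannot fully tell depth from group. Of the 42 relations of the 6 members with depth and 6 marker lists, 3 had a permutation p under 0.05 for r and 0 passed after adjustment. Besides that of miR-1224 with depth, these were miR-1224 with choroid plexus and miR-877 with leukocytes and microglia. The first gave r = -0.59 (permutation p = 0.0430, adjusted p = 0.603), and -0.63 without the 2 farthest libraries. The second gave r = -0.59 (permutation p = 0.0470, adjusted p = 0.603), and -0.22 without them.

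**Figure D2:**
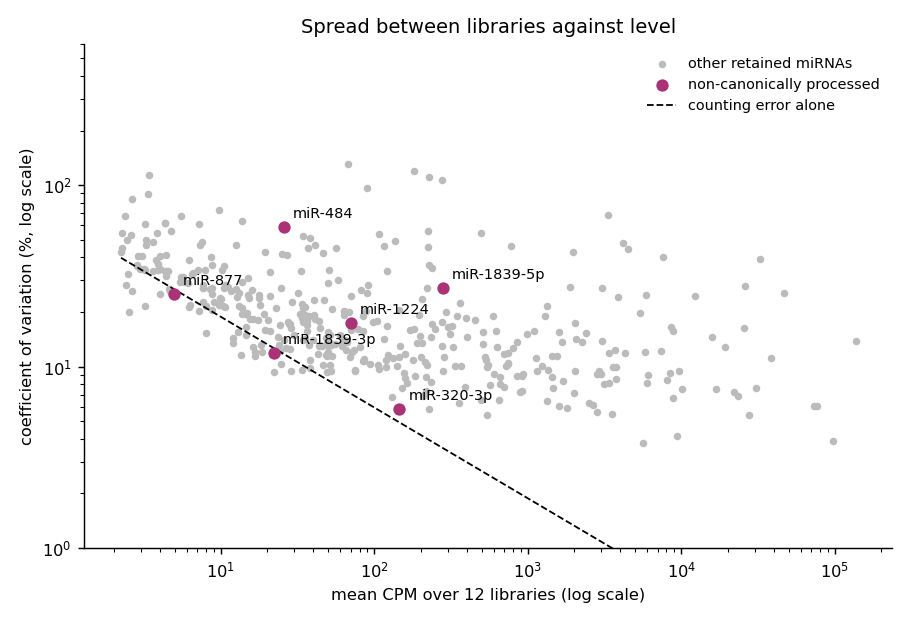
Coefficient of variation over 12 libraries (vertical axis, %, log scale) against mean CPM (horizontal axis, log scale) for 420 retained miRNAs, with the 6 members in purple and a dashed line for counting error alone. MiR-320-3p, miR-877 and miR-1839-3p lie near the line, and miR-484, at 59.1%, and miR-1839-5p, at 27.1%, lie far above it.

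Both arms of miR-1839, the small Cajal body RNA product, were read in every library, and the 5p arm was the more abundant in all 12. In vehicle rats 9, 10, 19 and 20 the 5p arm stood at 266, 461, 249 and 216 CPM, and in ethanol rats 3, 4, 7, 8, 15, 16, 23 and 24 at 227, 267, 269, 249, 225, 240, 410 and 287 CPM. The 3p arm stood at 26.7, 18.7, 24.2 and 23.6 CPM in the same vehicle rats, and in ethanol rats ran from 18.1 to 24.3 CPM with a median of 21.2. Vehicle rat 10 and ethanol rat 23 were high in the 5p arm. In the 3p arm, vehicle rat 10 was the lowest of its group and ethanol rat 23 the highest of its group.

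The difference between the groups passed the test for neither arm. The 5p arm averaged 298 ± 111 CPM (SD, n = 4) and 272 ± 59.8 CPM (SD, n = 8), a log2 difference of -0.13 (SE 0.20, 95% interval -0.57 to 0.31, edgeR adjusted p = 0.971, Benjamini-Hochberg). This difference changed sign, to 0.14, once vehicle rat 10 was left out. The 3p arm averaged 23.3 ± 3.35 CPM (SD, n = 4) and 21.3 ± 2.09 CPM (SD, n = 8), a log2 difference of -0.14 (SE 0.11, 95% interval -0.38 to 0.11, edgeR adjusted p = 0.971, Benjamini-Hochberg). Leaving out that rat gave a 3p difference of -0.24 by edgeR (adjusted p = 0.860, Benjamini-Hochberg). The difference in log2 means was then -0.23 (exact permutation p = 0.0242, not adjusted for the other members or rats left out). That p is not to be set against the adjusted edgeR p. Before adjustment, the edgeR p of the 3p arm was no lower than 0.0546 with any 1 rat left out.

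The ratio of the arms needs no scaling, since both are read from the same library. The 5p arm had between 9.14 and 24.6 times the reads of the 3p arm, with a median of 11.9. In vehicle rats 9, 10, 19 and 20 the 3p arm took 9.14%, 3.90%, 8.85% and 9.86% of the reads of both arms. In ethanol rats 3, 4, 7, 8, 15, 16, 23 and 24 it took 8.05%, 7.52%, 8.06%, 7.37%, 7.47%, 7.94%, 5.59% and 7.30%. Vehicle rat 10 had the lowest share of all, and its Wilson 95% interval, 2.92% to 5.20%, lay below the intervals of the other vehicle rats, the nearest of which began at 7.42%. Ethanol rat 23 was the lowest of its group, with an interval from 4.48% to 6.97%, which overlapped those of the others.

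**Figure D3:**
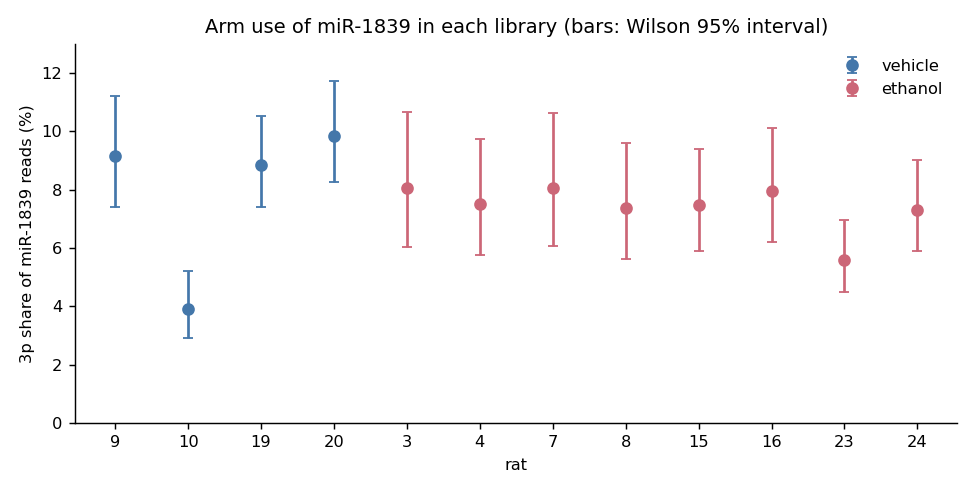
Share of miR-1839 reads that came from the 3p arm (vertical axis, %, from 0) in each of 12 rats (horizontal axis), vehicle in blue and ethanol in red, with Wilson 95% intervals for counting error. Vehicle rat 10 lies at 3.90% and ethanol rat 23 at 5.59%, the other 3 vehicle rats lie at 8.85% to 9.86% and the other 7 ethanol rats at 7.30% to 8.06%.

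Over all rats the 3p share averaged 7.94% ± 2.72 (SD, n = 4) in vehicle and 7.41% ± 0.798 (SD, n = 8) in ethanol rats, and the log2 ratio of 3p to 5p differed by -0.02 (exact permutation p = 0.939). This result turned on vehicle rat 10. Without it, the vehicle mean was 9.28% ± 0.520 (SD, n = 3), every ethanol rat lay below every remaining vehicle rat, and the log2 ratio differed by -0.36 (exact permutation p = 0.00606, the smallest that 165 ways to choose 3 of 11 libraries allow). Vehicle rat 10 was left out after its value was seen. The same calculation was run on the 122 hairpins with both arms retained. With all rats, 0 of them (0%) had ranges that did not overlap and 2 (1.64%) had an exact permutation p under 0.05. Without vehicle rat 10, miR-1839 was the 1 hairpin of 122 (0.82%) whose ranges did not overlap, 9 hairpins (7.38%) had an exact permutation p under 0.05, and the adjusted p of miR-1839 over the 122 was 0.647. Muscle miRNAs moved with this split as well: they summed to 1626 to 1764 CPM in vehicle rats 9, 19 and 20, 126 CPM in vehicle rat 10, 1711 CPM in ethanol rat 16 and 112 to 290 CPM in the other ethanol rats. The 3p share of ethanol rat 16, 7.94%, was within the range of the ethanol group. The part of tissue mixture in the arm ratio was not tested.

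Across libraries the levels of the arms of miR-1839 showed no correlation that passed a test. Their log2 CPM gave r = -0.00 (permutation p = 0.991) and rho = 0.21 (permutation p = 0.512) over 12 libraries, while the median r between the arms of 122 hairpins was 0.38, and 29 hairpins had a lower r than miR-1839. Without vehicle rat 10 and ethanol rat 23, the 2 libraries high in the 5p arm, r was 0.44 (permutation p = 0.198). Within the 8 ethanol rats it was 0.81, with ethanol rat 23 the highest of them in both arms. The log2 arm ratio had an SD of 0.38, against a median of 0.29 over the 122 hairpins.

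Read as a group, the members showed no response to ethanol at 3 h that passed a test. After ethanol 4 members were lower and 2 higher, with a median log2 difference of -0.08, and of all 420 retained miRNAs 227 were lower and 193 higher, with a median of -0.02. By edgeR's quasi-likelihood test 0 of 6 members had an unadjusted p under 0.05, against 17 of 420 retained miRNAs (4.05%). An adjusted p under 0.05 was given to 0 members and to 0 of 420 miRNAs (0%) by edgeR and by limma-trend, and to 1 miRNA, the muscle miR-133b-3p, by DESeq2. No member had vehicle and ethanol ranges that did not overlap, and 1 of 420 miRNAs (0.238%), miR-185-5p, did. The two-sided exact permutation tests of log2 CPM gave p = 0.517 for miR-320-3p, 0.840 for miR-484, 0.790 for miR-877, 0.281 for miR-1224, 0.743 for miR-1839-5p and 0.265 for miR-1839-3p. The intervals differ in what they allow, from 0.869 to 1.10 times the vehicle level for miR-320-3p to 0.484 to 1.56 times for miR-484.

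**Figure D4:**
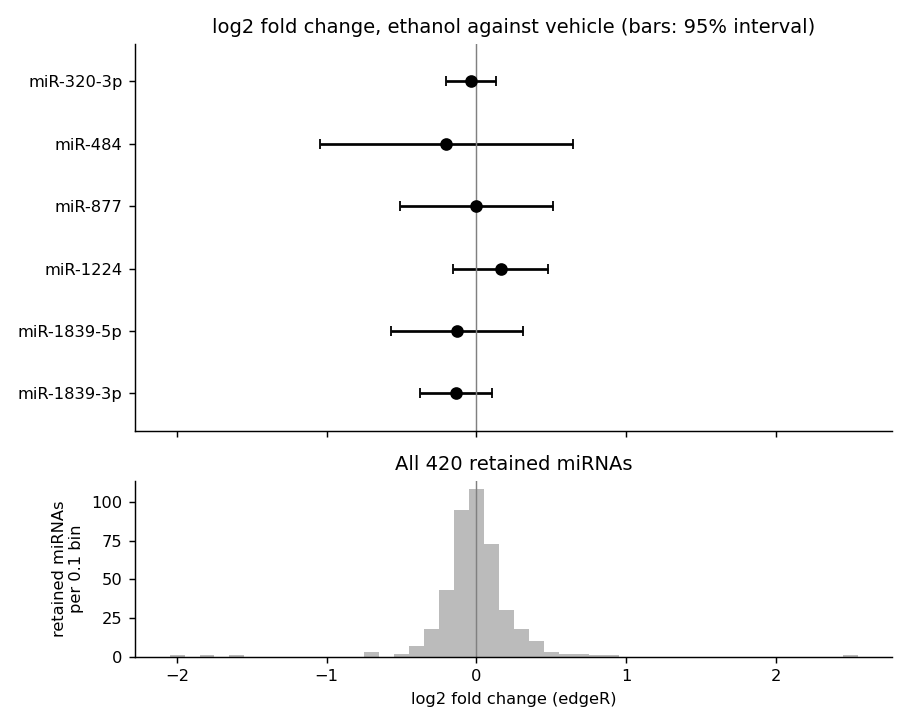
Upper panel, log2 fold change of each member, ethanol against vehicle (horizontal axis), with points for the edgeR estimate and bars for its 95% interval (4 vehicle and 8 ethanol rats). Lower panel, the number of retained miRNAs in each bin of log2 fold change over all 420. All 6 intervals include 0, and the widest, of miR-484, runs from -1.05 to 0.65.

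Among other miRNAs known from unusual precursors none passed a test by edgeR. Rows with the stems miR-451, cut by Argonaute 2 in place of Dicer, miR-664, from a small nucleolar RNA, and miR-702, described as a mirtron, numbered 7, of which 4 were retained, and the stems miR-1225, miR-1226, miR-1291 and miR-1983 had no row among the 753. After ethanol 3 were lower and 1 higher, with a median log2 difference of -0.05, and 0 had an unadjusted or adjusted p under 0.05 by edgeR. MiR-664-3p, the most abundant, averaged 748 ± 96.1 CPM (SD, n = 4) in vehicle and 740 ± 72.8 CPM (SD, n = 8) in ethanol rats. MiR-451-5p, a red blood cell miRNA, had a log2 difference of -0.09 (SE 0.43). MiR-664-2-5p and miR-664-3p had fractional counts in 5 and 6 libraries, so reads between related copies may have been divided.

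No pair of members varied together past a test over all 12 libraries. Of the 15 pairs of members, 9 had a positive r of log2 CPM over 12 libraries, the median r was 0.08, and 0 pairs had a permutation p under 0.05 for r or rho, before or after adjustment over the 15. The highest was that of miR-484 and miR-1839-5p, r = 0.44 (permutation p = 0.117, adjusted p = 0.935) with rho = 0.03 (permutation p = 0.921, adjusted p = 0.921). It was -0.22 without vehicle rat 10, high in both, and ethanol rat 7. The mirtrons miR-877 and miR-1224, which share a way of being made, gave r = -0.02 (permutation p = 0.939, adjusted p = 0.991) and rho = 0.10 (permutation p = 0.747, adjusted p = 0.921). MiR-1224 and miR-1839-5p gave r = 0.42 (permutation p = 0.172, adjusted p = 0.935) and rho = 0.50 (permutation p = 0.0987, adjusted p = 0.921). For this pair alone, r passed once the 2 libraries farthest from the median of miR-1224, vehicle rat 19 and ethanol rat 3, were left out (r = 0.87, permutation p = 8.00e-05, adjusted p = 0.00120), and within the 8 ethanol rats it was 0.08. Those libraries were chosen by the values of miR-1224 itself, so nothing is concluded from this p. Vehicle rat 10 and ethanol rat 23 were kept. They were the highest of the kept libraries in miR-1224 (85.1 and 76.5 CPM) and in miR-1839-5p (461 and 410 CPM).

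For each member the highest r was with a miRNA outside the group. Of the 420 retained miRNAs only 6 are members, so the highest r was likely to fall outside whatever the relation. Nothing is concluded from its place. Likeness was measured as Pearson's r of log2 CPM over 12 libraries with each of the other retained miRNAs, as a description without a test, and all points share the library and its scaling. MiR-1224 was most like miR-379-5p (r = 0.93) and miR-376b-3p (r = 0.90), both of the large imprinted miRNA cluster that neurons express. These held without the 2 libraries farthest from the median of miR-1224, at 0.84 and 0.78. MiR-379-5p ran from 587 to 872 CPM, with vehicle rats 19 and 20 lowest and ethanol rat 3 highest, the same libraries as for miR-1224.

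MiR-1839-5p was most like let-7a-5p (r = 0.91), a highly expressed neuronal and glial miRNA, and miR-125b-1-3p (r = 0.90). The high libraries carried both: let-7a-5p reached 47563 CPM in vehicle rat 10 and had a median of 36733. Without the 2 libraries farthest from the median of miR-1839-5p, r fell to 0.50 and 0.31. Within ethanol rats it was 0.90 and 0.85, but these still include the high ethanol rat 23. That rat was the highest of its group in miR-1839-5p, let-7a-5p and miR-125b-1-3p (410, 45786 and 532 CPM). Of the let-7 miRNAs that carry AGGUAG at bases 3 to 8, r with miR-1839-5p ran from -0.18 for let-7c-5p to 0.91 for let-7a-5p. Between these lay let-7g-5p (0.01), let-7b-5p (0.11), let-7d-5p (0.28), let-7i-5p (0.66), let-7e-5p (0.68) and let-7f-5p (0.82). Whether the shared letters play a part was not tested. Counts of these let-7 miRNAs were fractional in all 12 libraries and those of miR-1839-5p in none.

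**Figure D5:**
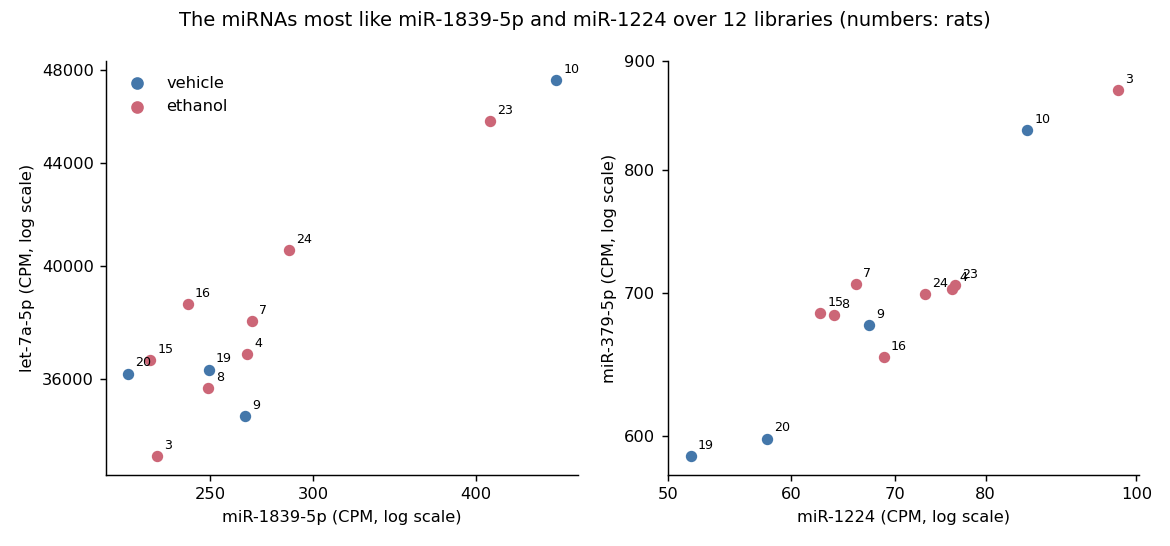
CPM of let-7a-5p against miR-1839-5p (left) and of miR-379-5p against miR-1224 (right), log scales on all axes, with 1 point per rat labelled by number, vehicle in blue and ethanol in red. On the left, rats 10 and 23 lie apart at the upper right (r = 0.91 over 12 libraries), and on the right the points run from vehicle rats 19 and 20 to ethanol rat 3 (r = 0.93).

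The remaining members had weaker likenesses. MiR-877 was most like miR-344i (r = 0.84) and miR-370-3p (r = 0.73). MiR-320-3p was most like miR-31a-3p (r = 0.73), itself at 1.05 to 6.82 CPM, and miR-296-5p (r = 0.73). Without the 2 libraries farthest from the median of miR-320-3p these were 0.46 and 0.75. MiR-484 was most like miR-344a-3p (r = 0.69) and miR-1843b-5p (r = 0.63), which fell to 0.30 and 0.35 without the 2 libraries farthest from its median. MiR-1839-3p was most like miR-99b-3p (r = 0.70) and let-7a-1-3p (r = 0.69). Over all retained miRNAs the median r with each member lay between -0.01 and 0.03.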

How the data were processed

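For each rat the authors deposited a list of 753 mature miRNAs with expected counts (estimated counts), unscaled, and the deposited counts of the members were whole in all 12 libraries. The labels name cutadapt, Partek and rn5, and which tool counted the reads, with which settings and annotation, is not given in the sources used here. Estimated counts were rounded to whole numbers. As in the study's methods, rare miRNAs were removed, here those with under 10 reads in at least 10 of 12 libraries. Groups came from the labels, and no replicate number is shared between them.

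All 420 retained miRNAs were fitted with TMM factors by edgeR 4.0.16 (R 4.3.3), using its quasi-likelihood test without covariates and Benjamini-Hochberg adjustment, in place of the study's two-sample test. log2 CPM used a prior count of 2. Single values were tested by exact permutation (two-sided) over all 495 ways to choose 4 of 12 libraries, which can reach 0.00202. Arm ratios had 0.5 read added to each arm. Correlations used 100000 permutations with adjustment over 15 pairs or 42 relations. DESeq2 1.42.0 and limma 3.58.1 (limma-trend) were alternatives, as were other scalings, filters, down-sampled counts and each rat left out. Scripts were tested on simulated data. Wilson intervals and floors cover counting error only, and no molecular identifiers were used. The intervals of the group differences rest on edgeR's SE, which also takes in the spread between rats. Each library is 1 rat, and sequencing sets are not given in the labels, so batches were not compared.

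The members, the marker lists and the other miRNAs of unusual origin were chosen with earlier results of these data known. Named beside them, by rule, were the 2 retained miRNAs with the highest r with each member. MiR-133b-3p as a call of DESeq2, miR-185-5p, other let-7 miRNAs, miR-133a-3p and miR-1b were named after their values were seen.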

Additional observations from a re-analysis of the deposited data

Results flagged for a closer look

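A library was picked out when it lay farther from the rest of its group than Dixon's 95% limit allows (its gap to the nearest library divided by the range of the group). For independent, normal values chance flags about 1 in 20 groups, or 0.7 of the 14 groups examined here, and 5 were picked out. The groups are not independent, since the arm ratio of miR-1839 is made from the same counts as its arms. The share flagged over all retained miRNAs is not given here, so the count is not read as a trait of the members. MiR-484 was high in ethanol rat 7, at 5.92 log2 CPM where the other ethanol rats lay at 4.07 to 4.50 (gap over range 0.768). MiR-1224 was high in ethanol rat 3, at 6.61 log2 CPM against 5.98 to 6.27 (0.547). MiR-1839-5p was high in ethanol rat 23, at 8.68 log2 CPM against 7.82 to 8.17 (0.592). The log2 ratio of the 3p to the 5p arm of miR-1839 was low in vehicle rat 10, at -4.61 against -3.36 to -3.19 in the other vehicle rats (0.879), and in ethanol rat 23, at -4.07 against -3.66 to -3.50 (0.717). Vehicle rat 10 and ethanol rat 23 also held the highest summed neuronal miRNAs, 37404 and 36928 CPM against 29524 to 36020 CPM elsewhere. Over 12 libraries the neuronal list and miR-1839-5p gave r = 0.49 (permutation p = 0.10, adjusted p = 0.603 over 42 relations) and rho = 0.36 (permutation p = 0.246, adjusted p = 0.795), and r was 0.71 without the 2 libraries farthest from the median of that list. The same rats held the lowest summed muscle miRNAs, 126 and 112 CPM. The muscle list and miR-1839-5p gave r = -0.50 (permutation p = 0.0914, adjusted p = 0.603). For this pair rho was -0.64 (permutation p = 0.0278, adjusted p = 0.659), and r was -0.38 with the farthest libraries left out likewise. The other lists also moved with that choice. For choroid plexus r with miR-1839-5p was -0.10 with all libraries and -0.87 without the farthest. For red blood cells it was -0.28 and -0.78, for leukocytes and microglia -0.27 and -0.72, and for oligodendrocytes -0.01 and -0.36. The part of tissue mixture was not tested.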

How the results depend on the processing

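Over 17 results and 402 alternative values, 347 kept their direction and their side of the threshold, or, for counts, stayed within 1.5 times. By edgeR an adjusted p under 0.05 was given to 0 miRNAs, to 1 by DESeq2 and to 0 to 3 with a rat left out (3 without ethanol rat 16, miR-1b, miR-133b-3p and miR-133a-3p, all of muscle). An unadjusted p under 0.05 was given to 17 miRNAs, to 11 with the library total as a covariate and to 5 to 21 with a rat left out (10 without vehicle rat 9, 5 without vehicle rat 20, 9 without ethanol rat 3, 11 each without ethanol rats 4 and 8). No other scaling moved the median log2 difference of all miRNAs by over 0.1. No paired analysis was possible because the groups share no replicate numbers.

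Most changes of direction were in values near 0. For miR-877 the log2 difference of 0.00 became -0.033 with library totals alone, -0.0031 with the upper quartile, -0.059 by limma-trend, -0.033 by a reading of the paper's steps, -0.0065 with the library total as a covariate and -0.20 with down-sampled counts, and ran from -0.15 to 0.17 with each rat left out. MiR-1839-3p became 0.019 by edgeR and 0.026 in the log2 means with down-sampled counts, and the arm ratio of miR-1839 became 0.12. The cause was not tested.

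With the library total as a covariate, the log2 difference was -0.08 for miR-320-3p, -0.57 for miR-484, 0.01 for miR-1224, -0.22 for miR-1839-5p and -0.11 for miR-1839-3p, and 0 members had an unadjusted p under 0.05 by edgeR. Leaving out each rat in turn gave edgeR log2 differences of -0.07 to -0.01 for miR-320-3p, -0.50 to 0.31 for miR-484, 0.06 to 0.29 for miR-1224, -0.26 to 0.14 for miR-1839-5p and -0.24 to -0.08 for miR-1839-3p. The differences of log2 means ran from -0.08 to -0.01, -0.39 to 0.22, 0.06 to 0.28, -0.23 to 0.12 and -0.23 to -0.063, and from -0.19 to 0.074 for miR-877. The arm ratio ran from -0.36 to 0.12.

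Pairs of libraries were left out after seeing the data. Without vehicle rat 10 and ethanol rat 7, edgeR gave 0.010 for miR-320-3p, 0.035 for miR-484 and 0.17 for miR-1839-5p, and the log2 means gave 0.0093, 0.053 and 0.15, with 0.054 for miR-877. By edgeR 1 member, miR-1224, then had an unadjusted p under 0.05, with a log2 difference of 0.34 and an adjusted p of 0.927 (Benjamini-Hochberg). In that fit 18 miRNAs in all had an unadjusted p under 0.05, and 0 had an adjusted p under 0.05. With vehicle rat 10 and ethanol rat 23 left out, edgeR gave 0.023, 0.38 and 0.073, and the log2 means gave 0.022, 0.29 and 0.072, with 0.045 for miR-877. In the log2 means miR-1839-3p then passed before adjustment, with -0.23 and -0.22 without either pair (exact permutation p = 0.025). By edgeR it was -0.23 and -0.22 (adjusted p = 0.927 and 0.760, Benjamini-Hochberg). Its unadjusted edgeR p was no lower than 0.0546 in any alternative. The exact test also passed for the arm ratio, with -0.38 and -0.29 (exact permutation p = 0.00833, the smallest these libraries allow). Vehicle rat 10 and ethanol rat 23 had the lowest 3p to 5p ratios of their groups, so libraries were left out by the tested value. No share over all hairpins is given for these pairs. Without vehicle rat 10 alone, 9 of 122 hairpins (7.38%) had an exact permutation p under 0.05. With the 2 libraries farthest from the median left out, 1 pair of members passed for r, against 0 with all. Those libraries were chosen by the values of 1 member of each pair, so nothing is concluded from that pass.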
